A study of Mus musculus with 27 samples.

Results

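The prostaglandin and leukotriene pathway was followed across 9 conditions of mouse bone marrow-derived macrophages (BMDM) through 10 genes: Pla2g4a, Ptgs1, Ptgs2, Ptges, Hpgd, Ptger2, Ptger4, Ptgir, Alox5 and Alox5ap. A probe was taken when the gene name printed for it in the raw array data of the first naive sample was one of these symbols. This gave 12 of the 55681 probes, 1 for each gene and a second for Ptges and for Hpgd, and 10 of the 32138 named genes on the array. For a gene with 2 probes the one with the higher mean carries the values below, and the other is given where it differs.

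Prostaglandins and leukotrienes are lipid signals made from arachidonic acid, which cytosolic phospholipase A2 (Pla2g4a) cuts from membrane lipids. The cyclooxygenases Ptgs1 (constitutive, COX-1) and Ptgs2 (inducible, COX-2) turn it into the prostaglandin precursor, Ptges makes prostaglandin E2 from this, and Hpgd, the 15-hydroxyprostaglandin dehydrogenase, inactivates the product. Ptger2 and Ptger4 are cAMP-raising receptors for prostaglandin E2 and Ptgir is the prostacyclin receptor, while 5-lipoxygenase (Alox5) and its activating protein (Alox5ap) start leukotriene synthesis. Macrophages are a classical source of both kinds of mediator when Toll-like receptors (TLRs) are engaged.

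The cells came from the marrow of female C57BL/6 mice 6 to 8 weeks old and were differentiated for 7 days in L929-conditioned medium, with no genetic change in any group. Naive cells received no ligand. Acute cells were given a ligand for 4 h, and re-stimulated cells had the same ligand for 24 h, were washed, and met it again for 4 h. The ligands were LPS (TLR4, 100 ng/ml), CpG DNA (TLR9, labelled 100 µM, with a lower concentration in the study's methods), Pam3CSK4 (TLR2, 100 ng/ml) and Poly(I:C) (TLR3, 10 µg/ml). There were 3 samples per group, 27 arrays in all. The methods describe marrow pooled from several mice with an independent pool for each replicate, and elsewhere a separate mouse behind each replicate, so whether a replicate is a pool or 1 animal is not settled. Per the labels, replicate 3 of re-stimulated LPS and replicate 2 of acute Pam3CSK4 failed quality control, and they carry no normalized values. Those groups hold 2 samples, and 25 arrays were compared.

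The array reports relative light per probe, so levels are given as log2 intensity, are compared only within a probe, and the number of arrays limits their precision. On 24 of the 25 arrays 43.1% to 55% of spots were well above background, against 74.9% on naive replicate 3. Acute LPS lay on 3 slides of its own, scanned on other days than the 3 slides that hold all other groups (1 slide for each replicate number), so its differences from any other group cannot be told apart from slide and scan. All 8 macrophage markers examined (Emr1, Csf1r, Cd68, Itgam, Fcgr1, Mertk, Lyz2 and Cd14) were well above background on 25 of 25 arrays, and their summed level stayed between 19.01 and 19.78 log2 units. The neutrophil markers Ly6g, Mpo and Ltf were above background on 15 or 16 arrays, and Elane and Camp on 25. Elane alone lay at 11.08 to 12.73 throughout, and the markers' sum cannot go below it. Their summed level ran from 11.54 to 12.16 in acute LPS, 13.36 to 14.05 in re-stimulated LPS, and, in the other 7 groups, 11.58 to 12.08 in replicate 3 against 12.66 to 14.89 in replicates 1 and 2. Of 6 fibroblast markers, Pdgfra was above background on no array, and the summed level ran from 6.62 to 8.56 in naive and acute cells, 7.71 to 8.34 in re-stimulated CpG and Pam3CSK4, 8.91 to 9.53 in re-stimulated LPS and 8.57 to 8.85 in re-stimulated Poly(I:C). Of 3 dendritic cell markers (Flt3, Zbtb46 and Cd209a), the sum was highest in acute LPS (9.60 to 10.69, against 4.94 to 5.82 in naive cells), where Zbtb46 averaged 10.28 against 4.05 and Cd209a was above background on 0 of 3 arrays. In such bulk samples a change in the share of a cell type and a change of RNA per cell cannot be told apart.

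Each pair of conditions was tested with limma over the probes detected (well above background) in 2 or more samples of one of the conditions. Called means an adjusted p (Benjamini-Hochberg, over all probes tested) below 0.05 together with a change of 1.5-fold or more. Against naive cells, acute LPS raised 1 of the 10 genes (Ptgs2) and lowered 2 (Ptgir and Alox5ap), where 26.5% of all probes were called (13.2% higher and 13.2% lower). Acute CpG raised 2 (Pla2g4a and Ptgs2), where 5.72% of probes were called, 3.09% in this direction. Acute Poly(I:C) raised Ptgs2 only, with 6.03% of probes called, 3.8% higher. Acute Pam3CSK4, with 2 arrays, gave no call among the 10 and none among 27843 probes (0%), while 3458 probes had an unadjusted p under 0.05. In log2 units the 10 genes had a median change of −0.73 in acute LPS, −0.10 in acute CpG, −0.25 in acute Pam3CSK4 and −0.20 in acute Poly(I:C), beside medians over all probes tested of −0.01, −0.07, 0.01 and −0.10.

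Re-stimulation with LPS, set against acute LPS, raised 4 genes (Ptges, Ptger2, Ptgir and Alox5ap) and lowered 2 (Ptgs2 and Hpgd), but 34.2% of all probes were called in this comparison (17.2% higher and 17% lower), which also crosses slides. Hpgd alone was called for CpG, where it fell and 3.56% of probes were called, 1.71% in this direction. For Poly(I:C) Pla2g4a, Ptgs2 and Ptger2 rose and Alox5ap fell, with 4.93% of probes called (2.31% higher and 2.62% lower). For Pam3CSK4 none of the 10 was called and none of 25430 probes (0%), with 3461 at an unadjusted p under 0.05. The 10 genes had a median change of 0.74 after LPS, −0.17 after CpG, 0.36 after Pam3CSK4 and 0.34 after Poly(I:C), and the medians over all probes tested lay between −0.02 and 0.06.

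Measured from naive cells, which share their slides with every re-stimulated group, re-stimulated LPS had 4 genes higher (Pla2g4a, Ptgs2, Ptges and Ptgir), where 5.66% of probes were called, 3.27% higher. Re-stimulated CpG had 3 higher (Ptgs2, Ptges and Ptgir) with 13.1% of probes called (6.65% higher), and re-stimulated Pam3CSK4 had Ptgs2 higher with 5.36% called (2.61% higher). Re-stimulated Poly(I:C) had Pla2g4a and Ptgs2 higher and Alox5ap lower, with 9.03% called (4.79% higher and 4.23% lower). The medians of the 10 genes were 0.72 (LPS), 0.31 (CpG), 0.40 (Pam3CSK4) and −0.20 (Poly(I:C)), and those of all probes tested lay between −0.04 and 0.03. The naive arrays are shared by these comparisons and by the acute ones, so the 8 are not independent.

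In the comparisons of 3 pairs without LPS, samples of 1 replicate number deviated together, and a fit with that number as a block changed several calls. With it 1 gene was called in acute CpG (2.1% of probes), 2 in acute Poly(I:C) (4.45%), 1 in re-stimulated against acute CpG (4.57%) and 6 in re-stimulated against acute Poly(I:C) (6.44%). Against naive it called 3 in re-stimulated CpG (8.93%), 1 in re-stimulated Pam3CSK4, where the share of probes called went from 5.36% to 0.0215% (6 of 27945), and 4 in re-stimulated Poly(I:C) (5.99%). The genes concerned are named below.

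**Figure D1:**
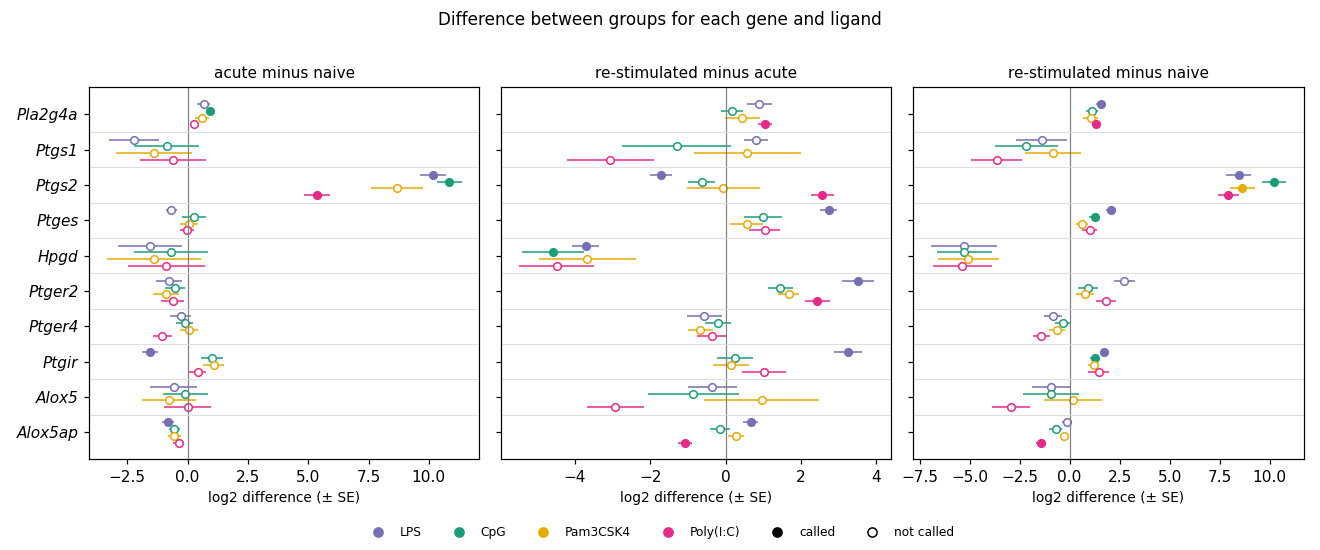
Log2 difference (± SE) of each gene between groups, for the 4 ligands, in acute minus naive, re-stimulated minus acute and re-stimulated minus naive cells. Filled points were called. Ptgs2 stands far to the right against naive cells, and Hpgd lies to the left of 0 in all 4 comparisons of re-stimulated with acute cells.

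The 250 bases before the RefSeq start of Ptgs2, Ptges and Hpgd are shown because Ptgs2 and Ptges make prostaglandin E2 and Hpgd breaks it down, and each was called in a comparison of re-stimulated with acute cells. They are from RefSeq, build GRCm38.p6, 5′ to 3′ on the gene's strand. Ptgs2 lies at chr1:150099781-150100030 (plus strand), Ptges at chr2:30903298-30903547 (minus strand) and Hpgd at chr8:56294302-56294551 (plus strand). Capitals mark matches on either strand to 5 motifs, which do not overlap here: TTGCGCAA (a C/EBP palindrome), a loose form of the NF-κB site (GGG, any 5 bases, then CC), TGACGTCA (the cAMP response element), TGANTCA (AP-1) and TATAAA.
Ptgs2: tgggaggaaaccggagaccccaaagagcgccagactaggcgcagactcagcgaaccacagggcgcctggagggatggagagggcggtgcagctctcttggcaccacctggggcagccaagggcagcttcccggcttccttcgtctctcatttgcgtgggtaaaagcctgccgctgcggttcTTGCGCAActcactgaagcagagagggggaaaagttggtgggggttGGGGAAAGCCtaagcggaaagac
Ptges: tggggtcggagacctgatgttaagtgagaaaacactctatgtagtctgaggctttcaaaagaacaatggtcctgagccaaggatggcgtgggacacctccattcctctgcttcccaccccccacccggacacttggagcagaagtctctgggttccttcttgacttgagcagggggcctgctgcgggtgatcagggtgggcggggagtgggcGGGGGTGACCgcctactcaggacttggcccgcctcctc
Hpgd: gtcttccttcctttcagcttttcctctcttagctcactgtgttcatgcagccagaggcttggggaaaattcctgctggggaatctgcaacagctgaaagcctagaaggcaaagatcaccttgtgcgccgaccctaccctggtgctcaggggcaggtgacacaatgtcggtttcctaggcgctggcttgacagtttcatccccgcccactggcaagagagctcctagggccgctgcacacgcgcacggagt
Ptgs2 held TTGCGCAA starting 69 bases before its start, a word found in 0.164% of 32851 promoters of the same length. The loose NF-κB form was present in Ptgs2 and Ptges, and in 45.8% of all promoters. None of the 5 was found in the Hpgd window. These matches are a description of the letters. Of the 10 genes, 9 had a promoter in the table (10 promoters, since Pla2g4a had 2). TGACGTCA and TGANTCA were in none of them, against 1.55% and 6.75% of all promoters, and TATAAA was in 1 of Pla2g4a, against 12.4%.

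**Figure D2:**
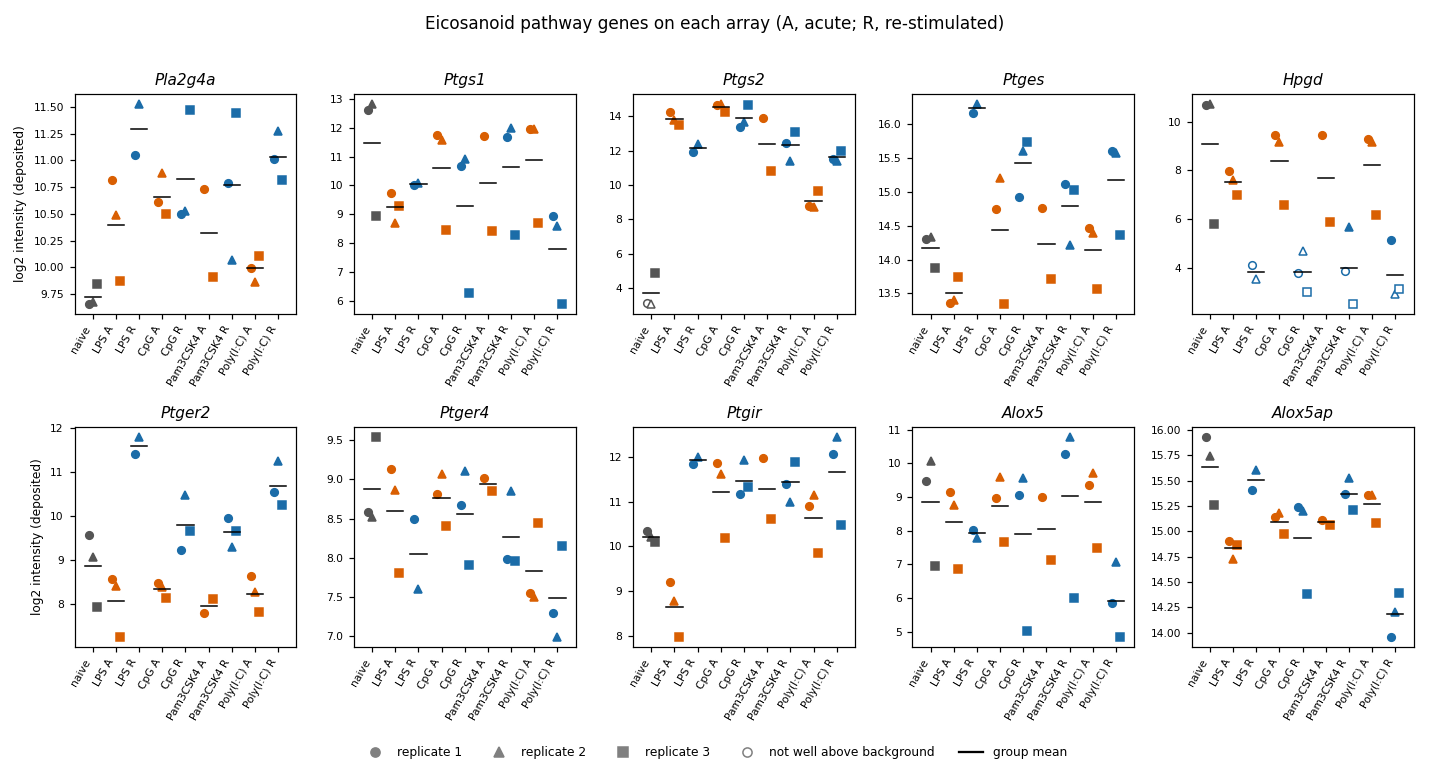
Log2 intensity of the 10 genes on each of the 25 arrays, by condition (A, acute, orange; R, re-stimulated, blue; naive, grey). Symbols give the replicate number, open symbols are not well above background and bars are group means. Replicate 3 (squares) is the lowest for Ptgs1, Hpgd and Alox5 in naive, CpG, Pam3CSK4 acute and Poly(I:C) acute cells.

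Ptgs2 moved furthest of the 10 genes, over 10.84 log2 units between its lowest and highest group mean. In naive cells its log2 intensity was 3.11, 3.10 and 4.86, and it was above background only on the array with 4.86, naive replicate 3. It stood at 14.28, 13.79 and 13.50 in acute LPS, 14.64, 14.73 and 14.24 in acute CpG, 13.93 and 10.83 in acute Pam3CSK4 (replicates 1 and 3), and 8.81, 8.73 and 9.64 in acute Poly(I:C). Every stimulated array lay above every naive array. With naive cells above background on 1 of 3 arrays, the differences from naive below are lower bounds. Acute LPS was at least 1150-fold higher, acute CpG at least 1840-fold and acute Poly(I:C) at least 41.4-fold, with each naive array at the lowest signal well above background or the probe's own where that was higher. These folds come to the same as the plain mean differences given next. Here and below, such a bound allows for background only and leaves out the SE. Among acute cells, the Poly(I:C) arrays lay below those of all other ligands. From naive the differences were 10.17 ± 0.52 (SE) for LPS (limma adjusted p = 0.000324), 10.85 ± 0.51 for CpG (adjusted p = 0.00119) and 5.37 ± 0.55 for Poly(I:C) (adjusted p = 0.00907). For Pam3CSK4 the difference was 8.69 ± 1.08 and missed the threshold (adjusted p = 0.288), although both arrays lay above all naive arrays, and without naive replicate 3 it was called (9.28, adjusted p = 0.0376). Poly(I:C) no longer passed once its acute replicate 1 (adjusted p = 0.0519) or 2 (0.0537) was taken away.

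After re-stimulation the group means of Ptgs2 ran from 11.63 to 13.90, against 9.06 to 14.53 in acute cells. Its values were 11.90 and 12.39 with LPS, 13.36, 13.67 and 14.68 with CpG, 12.45, 11.43 and 13.09 with Pam3CSK4, and 11.52, 11.38 and 11.99 with Poly(I:C). The LPS arrays lay below all 3 acute LPS arrays and the Poly(I:C) arrays above all 3 acute Poly(I:C) arrays, while CpG and Pam3CSK4 overlapped their acute groups. Ptgs2 fell by 1.71 ± 0.30 with LPS (adjusted p = 0.00807) and rose by 2.57 ± 0.31 with Poly(I:C) (adjusted p = 0.0219). The changes were −0.63 ± 0.36 for CpG (adjusted p = 0.362) and −0.06 ± 0.97 for Pam3CSK4 (adjusted p = 0.988). The LPS call was lost in a single limma fit of all 9 groups (adjusted p = 0.0692), in that fit with slide as a random block (0.107), with all 27 arrays (0.0543) and without LPS re-stimulated replicate 1 (0.0502). The Poly(I:C) call was lost when replicate 1 or 2 of either group was left out (adjusted p up to 0.0898). Ptgs2 stayed above naive in every re-stimulated group, by 8.46 ± 0.63 with LPS (adjusted p = 0.0104), 10.22 ± 0.59 with CpG (0.00173), 8.64 ± 0.63 with Pam3CSK4 (0.00979) and 7.94 ± 0.52 with Poly(I:C) (0.00309). Against the same naive background these came to at least 351-fold, 1190-fold, 398-fold and 246-fold, again equal to the plain mean differences and without their SE. Leaving out LPS re-stimulated replicate 1 or 2 ended the LPS call (adjusted p = 0.115 and 0.171), and leaving out naive replicate 2 or Pam3CSK4 re-stimulated replicate 1 ended that of Pam3CSK4 (0.0538 and 0.0675).

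Pla2g4a, which supplies the arachidonic acid, moved over 1.57 log2 units. Naive arrays read 9.66, 9.67 and 9.84, and every array of the other 8 groups was higher. Acute CpG (10.50 to 10.88) was 0.94 ± 0.18 above naive (adjusted p = 0.0429), and with the replicate number as a block the adjusted p was 0.0796. Re-stimulated Poly(I:C) (10.82 to 11.28) was above all acute Poly(I:C) arrays (9.86 to 10.11), by 1.05 ± 0.19 (adjusted p = 0.0403, 0.0547 with the block). Against naive the re-stimulated arrays were higher by 1.57 ± 0.23 with LPS (adjusted p = 0.033) and 1.31 ± 0.19 with Poly(I:C) (adjusted p = 0.0173, 0.0508 with the block), and by 1.11 ± 0.30 with CpG and 1.05 ± 0.36 with Pam3CSK4, which were not called. These 4 calls rest on few arrays. Acute LPS was called without LPS acute replicate 3 (0.94, adjusted p = 0.0308), and re-stimulated CpG against naive without naive replicate 3 (1.17, 0.0467). With 1 array left out at a time the adjusted p ran from 0.0368 to 0.166 for acute CpG, and only leaving out naive replicate 3 kept the call. It ran up to 0.141, 0.24 and 0.0761 for the other 3, whose calls held only without a replicate 3 array (in LPS, naive replicate 3). Pla2g4a calls were also lost without the detection filter in acute CpG (adjusted p = 0.124), re-stimulated against acute Poly(I:C) (0.102) and re-stimulated LPS (0.0869), under median scaling in acute CpG (0.264) and re-stimulated LPS (0.082), in the fit of all 9 groups for acute CpG (0.0562) and with all 27 arrays for re-stimulated LPS (0.125).

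Ptgs1, the constitutive cyclooxygenase, was highest in naive cells (12.61, 12.82 and 8.96) and lowest in re-stimulated Poly(I:C) cells (8.93, 8.59 and 5.92). Its replicates split by number, since in the 7 groups on shared slides that have a replicate 3 that array was lower than the others by 2.84 to 4.50 log2 units. No comparison of Ptgs1 was called without a block. The differences from acute were −3.06 ± 1.15 in re-stimulated Poly(I:C) (adjusted p = 0.159) and −1.30 ± 1.44 in re-stimulated CpG (0.651). Within slides, however, every re-stimulated Poly(I:C) array was below the acute array beside it, by 2.80 to 3.34, and below the naive array, by 3.04 to 4.22. With the replicate number as a block Ptgs1 was called lower there (−3.06 ± 0.18, adjusted p = 0.0361, and −3.65 ± 0.29 against naive, adjusted p = 0.0267), and in re-stimulated CpG against naive (−2.16 ± 0.23, adjusted p = 0.025). Without naive replicate 3 it was also called in acute LPS (−3.47, adjusted p = 0.000743), re-stimulated LPS (−2.65, adjusted p = 0.00216) and re-stimulated Poly(I:C) against naive (−4.90, adjusted p = 0.027). In re-stimulated LPS it was −1.40 ± 1.27 from naive with both replicates and all naive arrays, and it was called above acute LPS without LPS acute replicate 1 (1.07, adjusted p = 0.0448, against 0.82 ± 0.32). In Poly(I:C) the summed neutrophil markers were at 13.87, 14.62 and 11.58 after re-stimulation and 13.63, 14.66 and 11.86 in acute cells. The summed platelet markers were at 5.48 to 5.83 after re-stimulation and 6.36 to 6.76 in acute cells, and their part in the Ptgs1 values was not tested.

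Ptges, the terminal synthase of prostaglandin E2, was above background on every array. Naive arrays read 14.31, 14.34 and 13.88, acute LPS 13.36, 13.40 and 13.74, and re-stimulated LPS 16.17 and 16.30. The re-stimulated LPS arrays lay above every other array in the series. Ptges rose by 2.74 ± 0.22 on LPS re-stimulation (adjusted p = 0.000704) and stood 2.06 ± 0.23 above naive (adjusted p = 0.0231). The summed fibroblast markers were higher in these 2 arrays than in any acute LPS or naive array. Dcn averaged 9.01 there, against 5.38 in acute LPS and 4.78 in naive cells. Col1a2 went the other way, at 5.27 against 5.87 and 6.17. Col1a1, Col3a1, Pdgfra and Lum were above background on 0 of 2, and the part of fibroblasts was not tested. In re-stimulated CpG (14.92, 15.61 and 15.74) it was above all naive arrays, by 1.25 ± 0.28 (adjusted p = 0.0379, 0.079 with the replicate block and 0.0639 without replicate 3 of both groups). The 2 calls against naive were lost without the detection filter (adjusted p = 0.0558 for LPS and 0.078 for CpG), that of LPS also with all 27 arrays (0.111), and leaving out single arrays gave adjusted p up to 0.225 for LPS and 0.127 for CpG. The LPS call against naive held then only without naive replicate 3, and the CpG call only without naive replicate 3 or CpG re-stimulated replicate 1. The change with Poly(I:C) was 1.04 ± 0.42 from acute (adjusted p = 0.183, 0.0462 with the block), and it passed without Poly(I:C) re-stimulated replicate 3 (1.45, adjusted p = 0.0463), as did that from naive (1.42, adjusted p = 0.0268, against 1.01 ± 0.38). No acute group differed from naive by a called amount, with differences from −0.67 ± 0.22 in LPS to 0.26 ± 0.49 in CpG, though acute LPS passed without naive replicate 3 (−0.82, adjusted p = 0.022).

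The second Ptges probe moved further. In mm9 coordinates from the array files it lies at chr2:30748214-30748273, and the first at chr2:30744995-30745054. It read 5.31, 5.70 and 7.08 in naive cells and 6.60, 6.78 and 8.50 in acute LPS, and 12.91 and 13.37 in re-stimulated LPS. Both probes placed the re-stimulated LPS arrays above all acute LPS and naive arrays, but the rise from acute was 5.85 ± 0.58 here (adjusted p = 0.00138). Against naive this probe was called higher in all 4 re-stimulated groups, by 7.11 ± 0.58 with LPS (adjusted p = 0.013), 6.08 ± 0.60 with CpG (0.00618), 4.93 ± 0.54 with Pam3CSK4 (0.0163, and 0.0546 with the block) and 6.14 ± 0.71 with Poly(I:C) (0.0104). It was also called in acute CpG (8.92 to 12), at 4.81 ± 0.91 above naive (adjusted p = 0.0399, 0.0972 with the block), where the first probe was not. In acute LPS the probes differed in sign, at 1.26 ± 0.66 and −0.67 ± 0.22, and neither was called.

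**Figure D3:**
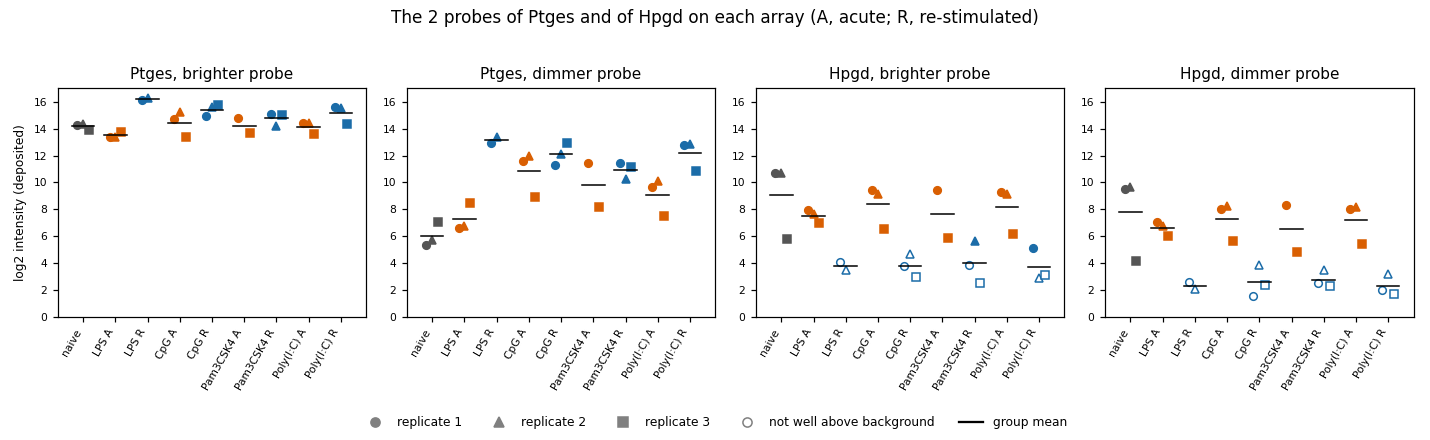
Log2 intensity of both probes of Ptges and of Hpgd on each array, on a common axis (symbols as in the plot of all genes by array). The second Ptges probe spans from 5.31 in a naive array to 13.37 in re-stimulated LPS, and both Hpgd probes lie at the bottom of their range in all re-stimulated groups.

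Hpgd, which breaks prostaglandins down, was low in every re-stimulated group. Naive arrays read 10.70, 10.73 and 5.81. Acute arrays read 7.98, 7.62 and 6.99 with LPS, 9.47, 9.15 and 6.57 with CpG, 9.47 and 5.89 with Pam3CSK4, and 9.30, 9.15 and 6.15 with Poly(I:C), all above background. On re-stimulation the probe was not well above background on any array of LPS (4.11 and 3.52) or CpG (3.79, 4.68 and 3.00), nor on 2 of 3 arrays each of Pam3CSK4 (3.86, 5.66 and 2.53) and Poly(I:C) (5.12, 2.92 and 3.11). For each of the 4 ligands all re-stimulated arrays lay below all acute arrays. The fall from acute was called for LPS (−3.72 ± 0.35, adjusted p = 0.00117) and CpG (−4.58 ± 0.82, adjusted p = 0.0419). Since the probe was not above background there, these are bounds, and acute cells were at least 13.2-fold higher with LPS and at least 23.8-fold with CpG. The bound sets the mean of the acute arrays against, on each re-stimulated array, the lowest signal well above background or the probe's own where that was higher. It leaves out the SE.

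The other Hpgd differences were of like size and did not pass. At most 1 array of each re-stimulated group was above background, so bounds are given after the differences. The differences were −4.49 ± 1.00 for re-stimulated against acute Poly(I:C) (adjusted p = 0.0561, 0.0431 with the block) and −3.67 ± 1.30 for Pam3CSK4 (adjusted p = 0.315). From naive they ran from −5.06 ± 1.52 with Pam3CSK4 (adjusted p = 0.109) to −5.36 ± 1.46 with Poly(I:C) (adjusted p = 0.0764), with CpG at −5.26 ± 1.38 (adjusted p = 0.0576, 0.0471 with the block) and LPS at −5.27 ± 1.66 (adjusted p = 0.132). As bounds on the means that allow for background but not for the SE, acute cells were at least 22.4-fold higher than re-stimulated ones with Poly(I:C) and 12-fold with Pam3CSK4. In the same sense naive cells were at least 31.5-fold higher than re-stimulated Pam3CSK4 and at least 38.2-fold (CpG), 38.5-fold (LPS) and 41.2-fold (Poly(I:C)) higher than the others. They are not minima for each slide. Within slides the differences from naive ran from −6.91 to −2.80 with CpG, −6.84 to −3.28 with Pam3CSK4, −7.82 to −2.70 with Poly(I:C) and −7.22 to −6.59 with LPS. Naive replicate 3 at 5.81 sets much of this spread, and without it all 4 were called, with adjusted p of 0.000958 (LPS), 0.0009 (CpG), 0.00989 (Pam3CSK4) and 0.00577 (Poly(I:C)). Acute LPS was then also called lower (−3.18, adjusted p = 0.00085, against −1.55 ± 1.33 with all arrays). The Poly(I:C) fall from acute was called, at −5.51, once replicate 3 of acute Poly(I:C) was set aside (adjusted p = 0.0226). The CpG call was lost when any array but CpG acute replicate 3 was left out (adjusted p 0.0994 to 0.123), under normexp background correction (−2.38, adjusted p = 0.0571) and without the detection filter (0.0846), and the LPS call in the fit of all 9 groups (0.0511). The second probe gave the same picture, with falls from acute of 4.32 ± 0.36 for LPS (adjusted p = 0.000826), 4.69 ± 0.83 for CpG (0.0413) and 4.91 ± 0.80 for Poly(I:C) (0.0336), and it was above background on no re-stimulated array. By the same rule its acute cells were at least 17.5-fold (LPS), 20.6-fold (CpG) and 22.6-fold (Poly(I:C)) higher.

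Among the receptors, Ptger2 rose on re-stimulation. Acute arrays lay between 7.26 and 8.63 for all ligands, and re-stimulated arrays at 11.40 and 11.79 with LPS, 9.24, 10.48 and 9.66 with CpG, 9.96, 9.30 and 9.67 with Pam3CSK4, and 10.54, 11.25 and 10.26 with Poly(I:C). Every re-stimulated array was above every acute array, whatever the ligand. The rise was 3.52 ± 0.42 for LPS (adjusted p = 0.00237) and 2.44 ± 0.33 for Poly(I:C) (adjusted p = 0.0248), and 1.46 ± 0.33 for CpG (adjusted p = 0.0631) and 1.68 ± 0.28 for Pam3CSK4 (0.165), which were not called. The LPS call was lost with all 27 arrays (2.38, adjusted p = 0.195), where LPS re-stimulated replicate 3 reads 8.60, and the Poly(I:C) call when replicate 1 or 2 of either group was left out (adjusted p up to 0.101). From naive (9.58, 9.07 and 7.93) no difference was called. That of LPS was 2.74 ± 0.53 (adjusted p = 0.0555) and passed without naive replicate 3 (2.27, adjusted p = 0.00608), and that of Poly(I:C) was 1.82 ± 0.49 (0.0736).

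Ptger4, the other prostaglandin E2 receptor of the set, moved over 1.46 log2 units, and none of its 12 comparisons was called without a block. It was lowest with Poly(I:C), at 7.55, 7.50 and 8.45 in acute and 7.29, 6.99 and 8.15 in re-stimulated cells, all below the naive values of 8.59, 8.52 and 9.54. These differences from naive were −1.05 ± 0.40 (adjusted p = 0.193) and −1.41 ± 0.42 (0.0927). With the replicate block they became −1.05 ± 0.11 (adjusted p = 0.0408) and −1.41 ± 0.15 (0.0353). Replicate 3 was the highest in all 3 groups.

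Ptgir, the prostacyclin receptor, differed most between acute LPS and the rest. It read 10.34, 10.21 and 10.09 in naive cells, 9.21, 8.77 and 7.98 in acute LPS, and 11.83 and 12 in re-stimulated LPS. The 3 groups did not overlap. Acute LPS was 1.56 ± 0.33 below naive (a difference of −1.56, adjusted p = 0.0181), and re-stimulated LPS was 3.26 ± 0.37 above acute (adjusted p = 0.00202) and 1.70 ± 0.19 above naive (0.0231). Re-stimulated CpG (11.16, 11.94 and 11.32) was 1.26 ± 0.25 above naive (adjusted p = 0.0276, 0.0569 with the block). With Pam3CSK4 the difference was 1.21 ± 0.27 (adjusted p = 0.0574) and with Poly(I:C) 1.45 ± 0.52 (0.138), the latter called without Poly(I:C) re-stimulated replicate 3 (2.04, adjusted p = 0.0111). The acute LPS call was lost under median scaling (−1.27, adjusted p = 0.212) and without naive replicate 1 or 2 or LPS acute replicate 2 (0.0544, 0.0557 and 0.0588). The re-stimulated calls against naive were lost in the fit of all 9 groups (0.0516 with LPS and 0.0953 with CpG), without the detection filter (0.0648 and 0.0627) and for LPS with all 27 arrays (0.301). Leaving out single arrays took them up to 0.225 for LPS, kept only without naive replicate 3, and 0.0865 for CpG, kept only there too. In acute CpG, Ptgir was 1.00 ± 0.46 above naive, and it was called without CpG acute replicate 3 (1.52, adjusted p = 0.0331).

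On the leukotriene side, Alox5ap moved over 1.45 log2 units, the smallest span of the 10 genes. Naive arrays read 15.93, 15.74 and 15.26, acute LPS 14.91, 14.73 and 14.87, re-stimulated LPS 15.41 and 15.61, acute Poly(I:C) 15.36, 15.36 and 15.08, and re-stimulated Poly(I:C) 13.96, 14.21 and 14.39. Re-stimulated Poly(I:C) lay below every acute Poly(I:C) and naive array. It was lower than acute by 1.08 ± 0.19 (a difference of −1.08, adjusted p = 0.0387, 0.0533 with the block) and than naive by 1.45 ± 0.24 (−1.45, adjusted p = 0.0236, 0.0675 with the block). Acute LPS was −0.81 ± 0.23 from naive (adjusted p = 0.045) and re-stimulated LPS 0.67 ± 0.20 above acute (0.0412), and neither call was kept when most single arrays were left out (adjusted p up to 0.142 and 0.194) or with signals scaled to the 75th percentile (0.268 and 0.0662). Leaving out naive replicate 3 kept the first, and LPS acute replicate 3 the second. The Poly(I:C) calls held only without a replicate 3 array (adjusted p up to 0.139 and 0.0937 otherwise). All 4 were lost under median scaling, which moved the median of all probes tested by up to 0.78 log2 units and turned several small uncalled Alox5ap, Alox5, Ptger4 and Ptges differences from negative to positive. The 4 Alox5ap calls kept their direction under it, at −0.25, 0.90, −0.83 and −0.54. They were lost without the detection filter as well (adjusted p 0.0532 to 0.114), and that of re-stimulated LPS with all 27 arrays (0.635).

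Alox5 itself was lowest in re-stimulated Poly(I:C) cells, at 5.85, 7.07 and 4.85, against 9.37, 9.71 and 7.48 in acute Poly(I:C) and 9.49, 10.08 and 6.95 in naive cells. The re-stimulated arrays lay below all acute arrays, by 2.93 ± 0.76 in the mean (a difference of −2.93, adjusted p = 0.0779), and from naive the difference was −2.92 ± 0.95 (0.114). Each array was below the acute array of its slide by 2.63 to 3.53, and with the block both differences were called (−2.93 ± 0.25, adjusted p = 0.0373, and −2.92 ± 0.36, adjusted p = 0.0399). Unblocked, the first passed with replicate 3 of acute Poly(I:C) left out (−3.62, adjusted p = 0.0379) and the second with naive replicate 3 left out (−3.86, adjusted p = 0.0205). In LPS, Alox5 was −1.87 from naive after re-stimulation without naive replicate 3 (adjusted p = 0.00947, against −0.92 ± 0.98 with it) and −1.05 from acute without LPS acute replicate 3 (0.0174, against −0.35 ± 0.66). With the other ligands no difference of Alox5 was called, with values from −0.95 ± 1.40 to 0.96 ± 1.52.

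Whether ligands differed was tested directly, in 1 limma fit of all 9 groups, for 6 pairs of ligands and 10 genes, 60 combinations for each state. In acute cells 6 were called. Ptgs2 was lower with Poly(I:C) than with LPS (by 4.79 ± 0.62, adjusted p = 8.62e-05), CpG (5.48 ± 0.62, adjusted p = 5.78e-05) and Pam3CSK4 (3.32 ± 0.70, adjusted p = 0.00553). The other 3 were Ptgir, lower with LPS than with CpG (−2.56 ± 0.52, adjusted p = 0.003), Pam3CSK4 (−2.64 ± 0.58, 0.00372) and Poly(I:C) (−1.98 ± 0.52, 0.0195). All 3 Ptgir calls, and the Ptgs2 difference of LPS from Poly(I:C), compare arrays on different slides. The share of probes called was 15.5% for LPS and CpG, 17.6% for LPS and Pam3CSK4, 10.7% for LPS and Poly(I:C), 3.92% for CpG and Poly(I:C), 6.48% for Pam3CSK4 and Poly(I:C) and 0.0292% for CpG and Pam3CSK4. Without Pam3CSK4 acute replicate 1 the Ptgs2 difference of Pam3CSK4 from Poly(I:C) and the Ptgir difference of LPS from Pam3CSK4 were lost (adjusted p = 0.175 and 0.0823). The Ptgir difference of LPS from Poly(I:C) was lost without LPS acute replicate 3 (0.0836) and without Poly(I:C) acute replicate 1 (0.0748) or 2 (0.088).

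After re-stimulation 5 of 60 were called. The share of probes called was 0.0227% for LPS and CpG, 1.06% for LPS and Pam3CSK4, 1.49% for LPS and Poly(I:C), 0.11% for CpG and Pam3CSK4, 6.89% for CpG and Poly(I:C) and 10.1% for Pam3CSK4 and Poly(I:C). Alox5ap was lower with Poly(I:C) than with LPS (by 1.32 ± 0.24, adjusted p = 0.00938), CpG (0.75 ± 0.21, adjusted p = 0.037) and Pam3CSK4 (1.18 ± 0.21, adjusted p = 0.00119). Ptgs2 was higher with CpG than with Poly(I:C), by 2.27 ± 0.62 (adjusted p = 0.032), and Ptger2 was higher with LPS than with Pam3CSK4, by 1.96 ± 0.46 (0.0482). Of these only the Alox5ap difference of Pam3CSK4 from Poly(I:C) kept its call whichever array was left out. The Ptger2 call was lost in 17 of 25 such fits (adjusted p up to 0.53, without LPS re-stimulated replicate 2). The Ptgs2 call was lost without any CpG re-stimulated array or Poly(I:C) re-stimulated replicate 1 or 2 (up to 0.134). The Alox5ap call of LPS was lost without LPS re-stimulated replicate 1 or 2 or Poly(I:C) re-stimulated replicate 1 (up to 0.19), and that of CpG without replicate 1 or 2 of either re-stimulated group (up to 0.212). The Hpgd values of the 4 re-stimulated groups were at the bottom of the scale, and none of their pairs was called. With the replicate block Ptgs1 and Alox5 were also called lower with Poly(I:C) than with Pam3CSK4 (by 2.83 ± 0.61, adjusted p = 0.00533, and 3.10 ± 0.54, adjusted p = 0.00109), and Alox5 than with CpG (1.97 ± 0.54, 0.0295).

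The replicates themselves differed in the members of this pathway. In the 7 groups on shared slides with a replicate 3, Ptgs1, Hpgd and Alox5 were lower in that replicate in 7 of 7 groups, by medians of 3.27, 2.74 and 2.06 log2 units (differences of −3.27, −2.74 and −2.06). For Hpgd these groups include re-stimulated CpG, Pam3CSK4 and Poly(I:C), with 0, 1 and 1 of 3 arrays above background. Its differences there (−1.23, −2.23 and −0.91) come from values near background. Of all 30814 probes tested over the 9 groups, 1.66% were lower in replicate 3 in all 7 with a median of at least 1 log2 unit, and 0.75% were higher in this way. The other 7 genes had replicate 3 on both sides, with medians from −1.17 for Ptgir to 0.87 for Ptgs2. Among the neutrophil markers, Ly6g, Mpo and Ltf were lower in replicate 3 in all 7 groups by medians of −6.71, −7.57 and −7.82, Camp in 6 of 7 (−4.48) and Elane in 7 of 7 (−0.40). Of 5 mast cell markers Cpa3 (−2.69) and Fcer1a (−2.40), and of 4 platelet markers Ppbp (−2.76), were lower in 7 of 7 groups as well, above background on 10, 4 and 15 arrays. In acute LPS, where Ly6g and Ltf were above background on 0 of 3 arrays, replicate 3 differed by 0.07 for Ptgs1, −0.81 for Hpgd and −2.11 for Alox5. The part of these cell types in the Ptgs1, Hpgd and Alox5 values was not tested. Within replicate 3, Hpgd went from 6.57 in acute to 3.00 in re-stimulated CpG. It went from 6.15 to 3.11 with Poly(I:C) and from 5.89 to 2.53 with Pam3CSK4. The summed neutrophil markers went from 11.79 to 11.99, 11.86 to 11.58 and 12.08 to 11.81. Elane (11.08 to 12.73 on all 25 arrays) holds this sum up, so it cannot follow the other markers. Camp, the other marker above background on all 25, went from 8.79 to 10.79, 7.19 to 9.48 and 8.67 to 10.45 in these arrays.

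**Figure D4:**
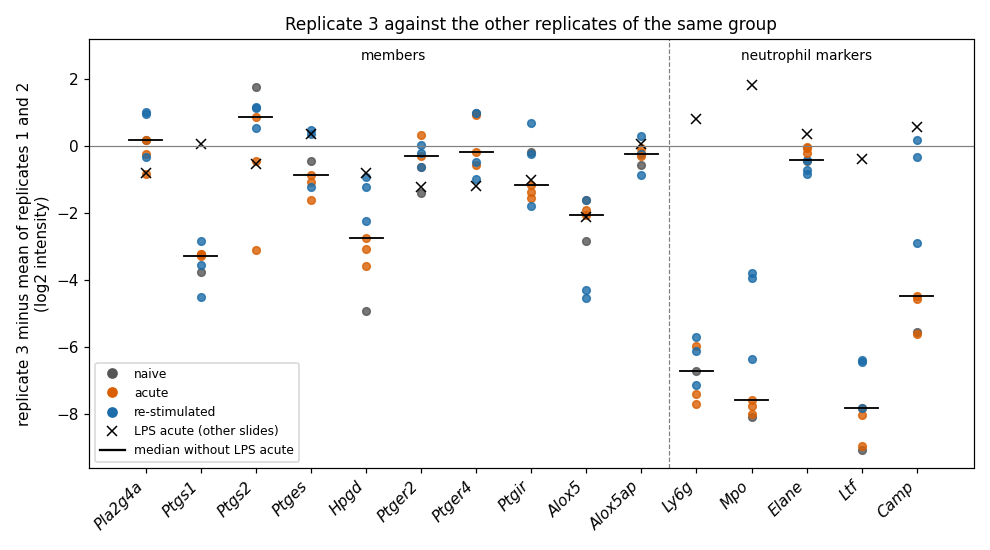
Difference between replicate 3 and the mean of the other replicates in log2 intensity, for the 10 genes and 5 neutrophil markers, 1 point per group (cross, acute LPS; bar, median of the other 7 groups). Ptgs1, Hpgd and Alox5 lie below 0 in every group on shared slides, as do Ly6g, Mpo, Elane and Ltf.

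Of 51 other genes of eicosanoid synthesis, transport and reception, all were on the array and 32 to 37 passed the detection filter in a comparison. Acute stimulation called 9 with LPS (5 higher and 4 lower), 1 each with CpG and Poly(I:C), both lower, and 0 with Pam3CSK4. Re-stimulation against acute called 17 with LPS (11 higher, 6 lower), 4 with CpG, 4 with Poly(I:C) and 0 with Pam3CSK4, the shares of all probes being those given above. Their median change was −0.47 in acute LPS and 0.29 on LPS re-stimulation, and between −0.32 and 0.12 in the other 10 comparisons. Ltb4r1, the high-affinity leukotriene B4 receptor, rose from a mean of 4.22 in acute to 10.33 in re-stimulated LPS cells (6.11 ± 0.43, adjusted p = 0.000543). The microsomal glutathione transferase Mgst2 rose by 3.74 ± 0.67 there (adjusted p = 0.0084), and the secreted phospholipases Pla2g5 and Pla2g2e by 2.62 ± 0.24 and 2.18 ± 0.24. The summed neutrophil markers were also higher in re-stimulated than in acute LPS on every array, though Mpo averaged 4.83 against 4.97. Ltb4r1 means also went from 6.97 to 8.41 with CpG and from 6.04 to 8.11 with Pam3CSK4, but from 6.75 to 6.55 with Poly(I:C). The CpG difference was not called (limma adjusted p = 0.706), and its re-stimulated arrays ran from 4.58 to 11.22. The Mgst2 means went from 9.99 to 10.65 with CpG and from 9.42 to 11.78 with Pam3CSK4, but from 10.11 to 9.28 with Poly(I:C). The neutrophil sum was 11.79 to 14.89 in acute and 11.99 to 12.81 in re-stimulated CpG. With Pam3CSK4 it was 12.08 to 14.22 and 11.81 to 12.88, and with Poly(I:C) 11.86 to 14.66 and 11.58 to 14.62. The part of neutrophils was not tested. Acute LPS raised the cysteinyl leukotriene receptor Cysltr2 (from 4.69 to 8.95) and Ltb4r2 (at least 4.59-fold, since it was above background on 0 of 3 naive arrays) and lowered Dpep2, a leukotriene D4 dipeptidase (from 14.61 to 12.59), all across slides.

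Against naive cells, re-stimulated Poly(I:C) lowered thromboxane synthase Tbxas1 (from 13.56 to 11.41, −2.15 ± 0.38, adjusted p = 0.026, 0.0701 with the block), Mgst3 (−2.30 ± 0.29, adjusted p = 0.0133) and the lysosomal phospholipase Pla2g15 (−2.59 ± 0.28, adjusted p = 0.00928). Mgst3 and Pla2g15 were called lower than naive with the other 3 ligands as well, at −1.91, −2.09 and −1.92 for Mgst3 and −2.40, −2.23 and −2.18 for Pla2g15 (LPS, CpG and Pam3CSK4), though with the block neither passed in Pam3CSK4 (adjusted p = 0.0747 and 0.0546). Tbxas1 was not called with those ligands (−1.01, −1.16 and −1.13). Re-stimulated CpG raised the prostaglandin transporter Slco2a1 by 2.17 ± 0.34 (adjusted p = 0.0178), a lower bound with 1 of 3 naive arrays above background. The dipeptidase Dpep1 was above background on no re-stimulated LPS, CpG or Pam3CSK4 array and 1 of 3 with Poly(I:C). Allowing for background but not for the SE, naive cells were at least 4.73-fold higher than re-stimulated LPS (adjusted p = 0.0391), 4.35-fold than CpG (0.014) and 3.78-fold than Poly(I:C) (0.0451). Of the 51 genes, re-stimulated LPS against naive called 4 of 34 tested (0 higher, 4 lower, 5.66% of all probes), CpG 8 of 34 (3 and 5, 13.1%), Pam3CSK4 4 of 33 (2 and 2, 5.36%) and Poly(I:C) 5 of 33 (1 and 4, 9.03%). With the replicate block the last 3 counts were 6, 0 and 3.

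Across the 9 group means, which for all but acute LPS come from the same 3 slides, Ptges and Ptger2 followed each other (r = 0.92), and both ran opposite to Hpgd (r = −0.80 and −0.84). The Hpgd means of the 4 re-stimulated groups (3.71 to 4.01) lie near background, so their order carries little. For Ptges the brighter probe alone was used. Ptgs1 moved with Alox5 (r = 0.90) and Alox5ap (r = 0.91), and Ptgs2 with none of the 9 others beyond r = 0.67 (Pla2g4a). The means differ in makeup. That of re-stimulated LPS holds no replicate 3, where Ptgs1, Hpgd and Alox5 were lower, and that of acute Pam3CSK4 no replicate 2. Among 20442 genes, those most like Ptgs2 over the 9 means were Rab11fip1 (r = 0.989, and 0.88 over 25 arrays), Tepp (0.985 and 0.76) and Coq10b (0.981 and 0.88). Hpgd was most like Hmmr (0.996 and 0.91), Gm1673 (0.993 and 0.96) and Fgfr1 (0.992 and 0.84). Ptges was most like a transcript named only by its Ensembl number, Lrrk2 (0.976 and 0.89) and Nxn (0.975 and 0.64), and Ptger2 like Ccl25 (0.993 and 0.64). Ptgs1 was most like Gsn (0.976 and 0.65). These are descriptions over points that are not independent.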

How the data were processed

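Single-colour Agilent mouse 8 × 60 K arrays were hybridized with Cy3-labelled cRNA and read with Feature Extraction (version 10.7.3.1). The authors deposited each array's spot intensity values unnormalized, and a table of log2 values for 25 arrays that, per the methods, limma had background-corrected (RMA) and quantile-normalized. Probe positions in the array files are on mm9. The deposited log2 table, already normalized, was the main measure. Column medians were 4.00 to 4.08, and each of the 25 columns was closest to its own array. Detection flags (other columns of the deposited array files) gave which spots were well above background. Remaking the log2 values from the intensities gave a median difference of 0.0355.

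Groups were fitted in pairs with limma 3.58.1 (R 4.3.3; lmFit and eBayes), Benjamini-Hochberg over all probes tested, so that p-values measure the spread between 2 or 3 cultures. Probes detected on 2 or more arrays of one of the groups were tested, calls needed an adjusted p below 0.05 and 1.5-fold, and the lead probe was the one with the highest mean. Ligand pairs were contrasts in 1 fit of 9 groups. Same-numbered replicates deviated together (correlations 0.12 to 0.48) in the 7 comparisons of 3 pairs without LPS, so the replicate number pairs them, and the block is given beside results it changes. The 10 genes are all named, and from the 51 other genes up to 12 called ones with the largest changes. Members, gene lists and markers were chosen with earlier results of these data known. Alternatives were other background corrections and scalings, the detection filter, the fold threshold, all 27 arrays, a common fit, slide as a random block, the replicate block and single arrays left out. The fits were tested on simulated data. All 12 probe accessions matched RefSeq symbols.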

Additional observations from a re-analysis of the deposited data

Results flagged for a closer look

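The change on re-stimulation (re-stimulated minus acute) was compared between ligands in 1 limma fit, for 6 pairs and 10 genes. In 4 of 60 combinations the changes differed by the test of the difference itself, and all 4 involve LPS. Ptgir rose more with LPS than with CpG, by 3.01 ± 0.78 log2 units (adjusted p = 0.0307), and than with Pam3CSK4, by 3.13 ± 0.82 (adjusted p = 0.0303). For Ptgs2 the change with LPS minus that with Poly(I:C) was −4.28 ± 0.93 (adjusted p = 0.0202), with a fall in the one and a rise in the other. For Alox5ap the change with LPS minus that with Poly(I:C) was 1.75 ± 0.32 (adjusted p = 0.00846). The share of all probes called was 6.35% for LPS and CpG, 7.20% for LPS and Pam3CSK4 and 3.61% for LPS and Poly(I:C), and at most 0.101% in the pairs without LPS. Because acute LPS lies on slides of its own, these differences cannot be told apart from slide and scan. In pairs without LPS none of the 10 genes was called. The calls depend on single arrays. Leaving out LPS re-stimulated replicate 2 ended all 4 (adjusted p = 0.125, 0.108, 0.0741 and 0.0634), and leaving out LPS re-stimulated replicate 1 ended all but that of Alox5ap (0.0796, 0.0752 and 0.0826). The Ptgir calls were also lost without LPS acute replicate 3 (0.0565 and 0.0538) and without several CpG or Pam3CSK4 arrays (up to 0.145).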

How the results depend on the processing

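No called change reversed. Of the 12 comparisons of conditions, the count of the 10 genes called moved by over 1.5 times as follows, and the cause was not tested. The fit of all 9 groups gave 1 for acute CpG, 1 for acute Pam3CSK4, 2 for re-stimulated against acute CpG, and 5, 3 and 6 against naive in re-stimulated CpG, Pam3CSK4 and Poly(I:C). The share of all probes called rose there too, to 15.2%, 5.21%, 5.54%, 19.3%, 15.9% and 18.7%. That fit with slide as a random block gave 1, 2 and 2 for acute Pam3CSK4 and for re-stimulated against acute CpG and Pam3CSK4, 7 for re-stimulated against acute Poly(I:C), and 6, 3 and 9 for re-stimulated CpG, Pam3CSK4 and Poly(I:C) against naive, with 8.37%, 10.2%, 5.49%, 16.5%, 24.8%, 22.3% and 24.2% of probes called. With all 27 arrays LPS re-stimulation gave 3 against acute (6.08% of probes) and 1 against naive (0.402%). Median scaling gave 1 and 1 for acute CpG and Pam3CSK4 (3.94% and 0.819% of probes) and 2 and 1 on their re-stimulation (5.58% and 0.488%). Against naive it gave 6, 2 and 8 for re-stimulated CpG, Pam3CSK4 and Poly(I:C) (11.7%, 5.43% and 8.61%). Without the detection filter there were 1 for acute CpG (0.74% of probes) and 0 and 2 for re-stimulation with CpG and Poly(I:C) (0.264% and 0.409%). There was 1 each for re-stimulated LPS and CpG against naive (0.568% and 2.96%). Detection on every array and normexp each gave 2 for re-stimulated Pam3CSK4 against naive (7.35% and 9.55% of probes). The 75th percentile gave 5 and 3 for re-stimulated CpG and Pam3CSK4 against naive (20.4% and 10.4%). The replicate block gave 1 for acute CpG, 2 for acute Poly(I:C) and 8 for re-stimulated LPS against naive (24.8% of probes, from 5.66%). In the last only 2 pairs exist. Each pair shares a slide, but numbers were not taken to pair samples there (correlations 0.08 to 0.09, a weak guide with 2 pairs). The genes that the block added there were Ptgs1, Hpgd and Alox5, lower, and Ptger2, higher. Their within-slide differences were −2.72 and −2.58, −7.22 and −6.59, −2.28 and −1.46, and 1.82 and 2.72. The other calls of the block in comparisons without LPS are beside the results.

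Replicates 1 and 2 alone, chosen after seeing the data, gave 8, 5, 2 and 5 calls in acute LPS, CpG, Pam3CSK4 and Poly(I:C), 2 and 9 for re-stimulated against acute CpG and Poly(I:C), and 8, 5, 4 and 10 against naive, with 7.22% to 45.3% of probes called in these 10 comparisons. Leaving out 1 array at a time gave 1 to 6, 1 to 2, 0 to 1 and 0 to 1 for acute LPS, CpG, Pam3CSK4 and Poly(I:C), 4 to 7, 0 to 1, 0 and 0 to 6 for their re-stimulation against acute, and 0 to 8, 1 to 5, 0 to 2 and 1 to 6 against naive. The arrays concerned are named beside the genes. In the same way the ligand pairs called were 5 to 7 (acute), 1 to 6 (re-stimulated) and 0 to 7 (the change). They were 3, 1 and 0 with all 27 arrays, 15, 22 and 24 with replicates 1 and 2, 1 and 1 (re-stimulated, change) with median scaling, 2 and 2 without the filter, 8 re-stimulated with the replicate block, and 7 in the change with normexp or slide as a random block. Signal over background limits Hpgd after re-stimulation and Ptgs2 in naive cells.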
